A study of Mus musculus with 19 samples.

Results

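The genes described here are the potassium and sodium channel genes of the expression table, taken as every symbol that begins with Kcn and a letter or with Scn and a digit, except Kcnj10 and Kcnj16. This gave 107 of the 22958 genes in the table, of which 93 were potassium channel (Kcn) genes and 14 sodium channel (Scn) genes. The study compared glial progenitor cells (GPC, 4 RNA-seq libraries), grown from mouse embryonic stem cells (ESCs) and able to form astrocytes and oligodendrocytes, with glial cells likewise grown from ESCs (glia, 3 libraries). It also mapped the GPC sites bound by SOX3, SOX9 and NFIA, 3 transcription factors, by chromatin immunoprecipitation (ChIP-seq). For GPC, ESCs were turned towards neural fate with 0.1 µM retinoic acid, sorted at day 8 on magnetic beads for the surface antigen A2B5, and grown with EGF and FGF2 at 10 ng/ml. The labels repeat that protocol for the glia, and give no step that turned progenitors into glia. No genotype, strain or added transgene is named for either group, and no label ties the libraries to separate cultures, so the p-values rest on a spread between samples that may be technical.

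Potassium channels let potassium leave the cell and hold the membrane potential negative, and voltage-gated sodium channels carry the inward current of the action potential. Pore subunits of the voltage-gated (Kv) kind assemble in groups of like subunits, some only as silent modifiers of others, and auxiliary subunits set their speed and their place in the membrane. Astrocytes are known for a high resting potassium conductance, oligodendrocyte precursors for carrying delayed-rectifier and A-type potassium currents and small sodium currents, and mature oligodendrocytes for losing most of these.

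Reads in genes numbered 6897294 to 22439837 per library, and channel genes took 880 to 998 CPM (counts scaled to library size). Of 10 astrocyte markers 8 rose in glia and 2, Aldh1l1 and Slc1a3, fell. Their summed level was 794 to 1224 RPKM (reads scaled to gene length and to the reads of the library) in GPC and 7623 to 9890 RPKM in glia. All 10 maturing oligodendrocyte markers rose, from a sum of 104 to 128 RPKM to one of 1713 to 2430 RPKM. Of 8 oligodendrocyte precursor markers 5 rose (Pdgfra, Sox10, Gpr17, Neu4 and C1ql1) and 3 fell (Cspg4, Olig1 and Olig2). The sum of the 8 was lower in glia, at 1062 to 1439 RPKM against 1612 to 1775 RPKM in GPC. Olig1 and Olig2 made up most of that sum in both groups. C1ql1 rose from a mean of 9.89 to 330 RPKM, Gpr17 from 22.9 to 126 and Pdgfra from 20.7 to 53.6. Of 18 neuronal markers 14 could be tested, of which 8 rose and 1 fell. The summed level of the 18 was 186 to 204 RPKM in GPC and 247 to 264 RPKM in glia. Mtap2, which fell from a mean of 150 to 127 RPKM, made up most of the GPC sum. Among the rises, Dcx went from a mean of 4.65 to 30.9 RPKM, Elavl3 from 2.81 to 32.0 and Syt1 from 0.479 to 4.79. Tubb3 rose from a mean of 16.3 to 30.0 RPKM. Slc17a6 was at 0 in every library and Slc17a7 and Gad2 stayed under 0.1 RPKM on average. Of 11 mural and mesenchymal markers 8 rose, from a summed 100.3 to 107 RPKM to 441 to 549 RPKM. GPC replicate 3 had the highest astrocyte marker sum of the GPC libraries, and 39 of the 63 channel genes tested were higher in it than in the average of replicates 1, 2 and 4, against 6428 of the 13588 genes tested in all. The part of these other cell types and of this library in the channel results was not tested, other than by leaving the library out. In bulk RNA, fewer cells of a type and less RNA per cell cannot be told apart.

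Channel genes were redistributed between GPC and glia while their summed level in the groups overlapped. Summed over all 107, RPKM came to 296, 268, 311 and 279 for the 4 GPC libraries and 283, 274 and 277 for the 3 glia libraries. One gene, Kcnmb4, made up 32.3% of that sum in GPC and 5.35% in glia. Without it the summed RPKM was 192, 181, 220 and 188 across GPC and 268, 260 and 262 across glia, and every glia library was above every GPC library. The RPKM of Kcnmb4 rests on a short gene length of about 719 bases. By mean CPM in GPC it lay at 67.8, below Kcnc1 (172.9) and Kcnd3 (164.1). A mean level of at least 1 RPKM was reached by 34 channel genes in GPC and 38 in glia, against 52.4% and 54.8% of all genes of the table.

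Of the 107 channel genes, 63 had enough reads to be tested, against 59.2% of all genes of the table. In edgeR's quasi-likelihood test over all genes, with p-values adjusted by Benjamini-Hochberg and called at 0.05, 32 of the 63 rose in glia against GPC, 14 fell and 17 did neither. Over all genes tested 70.4% were called in either direction, 35.2% rising and 35.2% falling. The share of channel genes called, 73.0%, was thus near that background, and the count called was larger on the rising side. At 2-fold or more, 21 channel genes rose and 11 fell, against 16.5% and 9.24% of all genes tested. The median log2 change, glia against GPC, was 0.53 for the 63 and 0.00 for all genes, with single channel genes between -4.13 and 3.54. CPM of the groups did not overlap for 42 of the 63, against 69.5% of all genes tested.

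**Figure D1:**
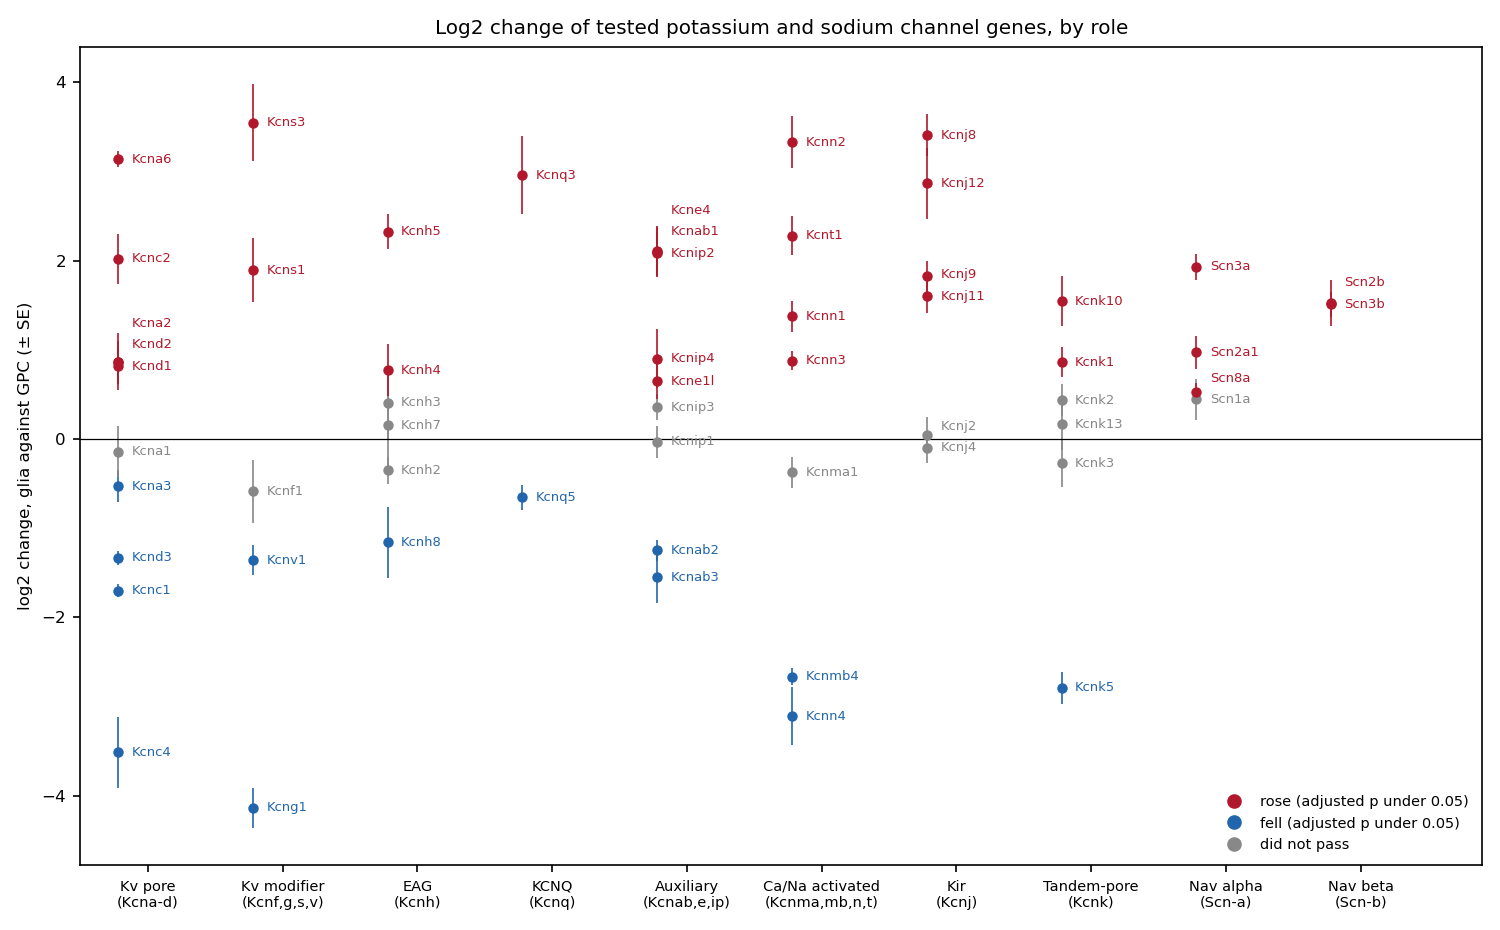
Log2 change of glia against GPC for most of the channel genes that could be tested, with points as edgeR estimates and bars as standard errors, grouped on the x axis by role; red genes rose, blue genes fell and grey genes did not pass at an adjusted p of 0.05. The inward rectifiers and the sodium channel beta subunits hold no falling gene. The pore, modifier, auxiliary and calcium- or sodium-activated groups hold genes at both ends. The noncoding Kcnq1ot1 is left off.

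**Figure D2:**
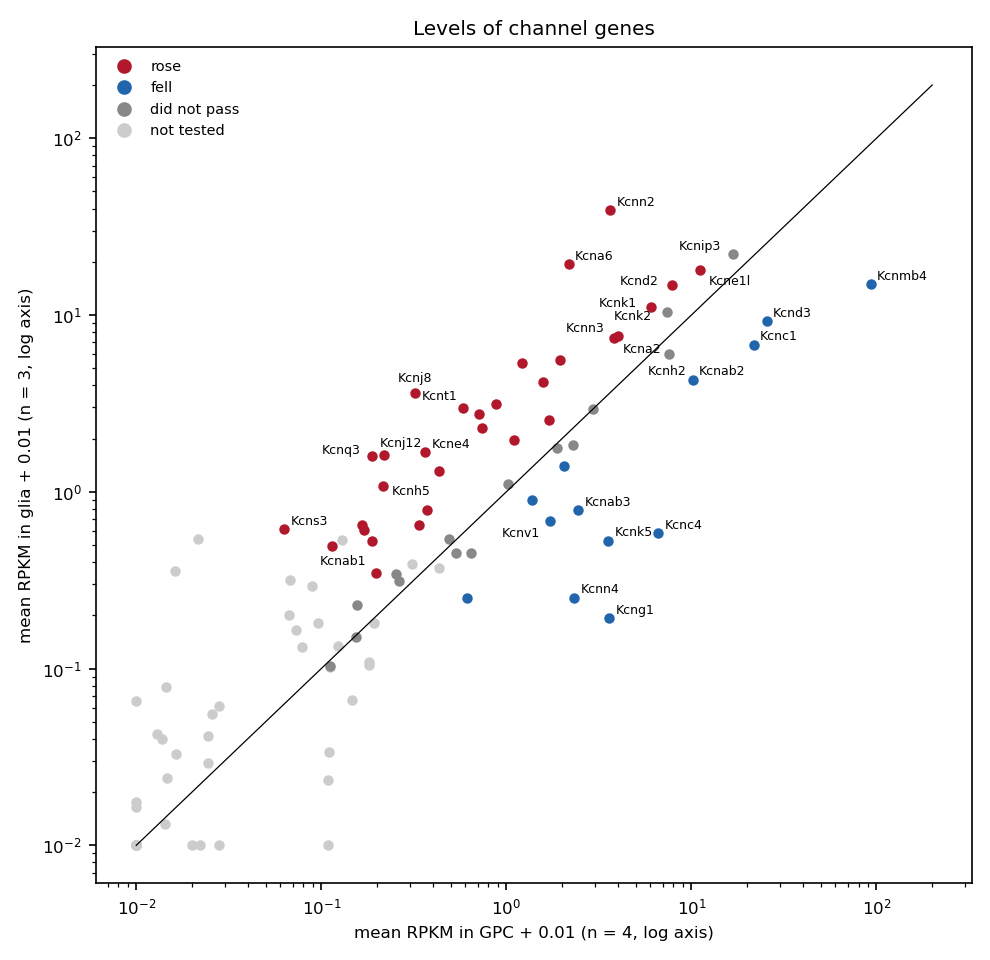
Mean RPKM of most of the 107 channel genes in GPC (x axis, 4 libraries) and glia (y axis, 3 libraries), on log axes with 0.01 added; the line marks equal levels. Kcnmb4 lies farthest to the right, Kcnn2 lies highest, and the 44 genes that were not tested all lie below 1 RPKM.

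Upstream sequence is shown for 2 genes of each direction, picked after their values were seen. Kcnj12 and Kcnj8, pore subunits of inward rectifiers, were among the 10 largest rises, and Kcnmb4 and Kcnc1, a regulator of the large-conductance calcium-activated (BK) channel and a fast Kv pore subunit, were among the 10 largest falls. Kcnj12 is shown also because a SOX9 peak spanned its start as the authors placed it on build mm9. Whether the RefSeq start used here is that same start was not tested. The sequences are the 250 bases before the first start that RefSeq lists (build GRCm38.p6), written 5′ to 3′ on the gene's strand, with each CpG in capitals.
Kcnj12, chr11:61065554-61065803, plus strand: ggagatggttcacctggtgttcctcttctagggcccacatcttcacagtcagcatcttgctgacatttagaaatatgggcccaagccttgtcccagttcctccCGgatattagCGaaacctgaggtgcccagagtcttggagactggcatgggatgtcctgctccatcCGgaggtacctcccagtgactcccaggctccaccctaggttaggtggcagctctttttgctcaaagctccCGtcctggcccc
Kcnj8, chr6:142571615-142571864, minus strand: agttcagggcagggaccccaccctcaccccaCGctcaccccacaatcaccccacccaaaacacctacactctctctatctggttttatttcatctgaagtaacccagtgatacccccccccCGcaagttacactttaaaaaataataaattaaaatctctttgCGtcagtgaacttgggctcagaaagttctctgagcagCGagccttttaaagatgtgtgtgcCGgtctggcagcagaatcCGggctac
Kcnmb4, chr10:116473524-116473773, minus strand: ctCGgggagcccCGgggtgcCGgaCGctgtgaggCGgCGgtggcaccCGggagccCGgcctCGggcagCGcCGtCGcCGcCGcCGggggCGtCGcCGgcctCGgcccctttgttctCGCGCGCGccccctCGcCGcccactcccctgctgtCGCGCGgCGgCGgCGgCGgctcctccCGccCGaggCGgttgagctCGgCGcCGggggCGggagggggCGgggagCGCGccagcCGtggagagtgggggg
Kcnc1, chr7:46396218-46396467, plus strand: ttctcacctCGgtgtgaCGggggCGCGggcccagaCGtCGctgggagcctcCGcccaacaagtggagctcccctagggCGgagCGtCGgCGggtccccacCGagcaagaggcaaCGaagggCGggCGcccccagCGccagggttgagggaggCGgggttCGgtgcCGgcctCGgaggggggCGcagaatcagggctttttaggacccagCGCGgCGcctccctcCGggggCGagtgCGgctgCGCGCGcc
The rising pair held 4 (Kcnj12) and 6 (Kcnj8) CpGs, and the falling pair 43 (Kcnmb4) and 30 (Kcnc1). G and C made up 56.0% and 49.2% of the first pair and 83.6% and 74.4% of the second. These pairs lay at the ends of the range, and other genes among the 10 largest changes stood closer together. Of those with a RefSeq promoter, the falls held 6 (Kcnn4), 12 (Kcnc4), 18 (Kcnd3), 19 (Kcnk5) and 20 (Kcnab2) CpGs. The rises held 6 (Kcnab1), 7 (Kcne4), 8 (Kcna6), 8 (Kcns3) and 16 (Kcnh5). Over the 77 of 107 channel genes with a promoter in the RefSeq table, the median CpG number was 8.0 (quartiles 5.25 and 15.75) for the 22 that rose and 19.5 (13.5 and 27.5) for the 10 that fell, against 6.0 for all 27025 genes of that table.

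Among Kv pore subunits (Kcna to Kcnd, 17 genes, 12 tested), 6 rose and 4 fell, and subfamilies went different ways. The Kcna (Shaker) genes summed to a mean RPKM of 8.25 in GPC and 28.7 in glia, the Kcnc (Shaw) genes to 36.7 and 15.9 RPKM. Kcna6, a Shaker-type pore subunit that opens on depolarization, accounted for most of the first difference, with RPKM values of 2.05, 2.02, 2.03 and 2.55 in GPC replicates 1 to 4 and of 20.1, 19.1 and 19.1 in glia replicates 1 to 3, an order kept for each gene. All glia libraries lay far above all GPC libraries, and the log2 change was 3.14 ± 0.09 (SE, edgeR adjusted p = 3.7e-09). Kcna2, a Shaker subunit of axonal potassium channels, had RPKM values of 3.02, 3.00, 6.53 and 2.70 in GPC and of 7.39, 8.82 and 5.93 in glia. GPC replicate 3 reached into the range of glia there, and the rise of 0.87 ± 0.32 (SE, edgeR adjusted p = 0.039) was lost on leaving out any 1 library other than GPC replicate 3 (edgeR adjusted p up to 0.13) and became 1.28 without that library. Kcna3, the Shaker subunit known from lymphocytes and microglia, fell by 0.53 on the log2 scale and lost its call when replicate 1 of either group or glia replicate 2 was left out (edgeR adjusted p up to 0.054). Kcna1, the next gene to Kcna6 on chromosome 6, did not pass, with means of 0.144 and 0.141 RPKM.

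The Shaw subunits, whose channels open and close fast and serve repetitive firing in neurons, included 2 of the largest falls. Kcnc1 had RPKM values of 22.8, 22.6, 19.3 and 22.3 in GPC and of 6.86, 6.81 and 6.69 in glia. No library of one group reached the other, with a log2 change of -1.70 ± 0.07 (SE, edgeR adjusted p = 3.3e-08). Kcnc4, a Shaw subunit that inactivates quickly, had RPKM values of 5.20, 4.91, 11.1 and 5.19 in GPC and of 0.579, 0.505 and 0.639 in glia. GPC replicate 3 stood at 2.18 times the average of replicates 1, 2 and 4, all glia libraries lay below 1 RPKM, and the log2 change was -3.51 ± 0.40 (SE, edgeR adjusted p = 6.7e-05), or -3.11 without GPC replicate 3. Kcnc2 rose by a log2 change of 2.02 ± 0.28 (SE, edgeR adjusted p = 9.2e-05) from a mean of 0.156 RPKM to one of 0.638 RPKM.

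Of the Kcnd (Shal) subunits, which carry the A-type current that delays firing, Kcnd3 fell while Kcnd2 and Kcnd1 rose. Kcnd3 had RPKM values of 24.3, 24.1, 26.8 and 26.98 in GPC and of 9.55, 9.74 and 8.26 in glia. It was the second-highest channel gene in GPC by RPKM and its groups did not overlap (log2 change -1.33 ± 0.08 SE, edgeR adjusted p = 1.9e-07). Kcnd2 had RPKM values of 5.92, 7.11, 11.96 and 6.34 in GPC and of 15.9, 14.9 and 13.4 in glia. GPC replicate 3 was near the glia there and the other GPC libraries well below them, with a log2 change of 0.86 ± 0.24 (SE, edgeR adjusted p = 0.011).

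**Figure D3:**
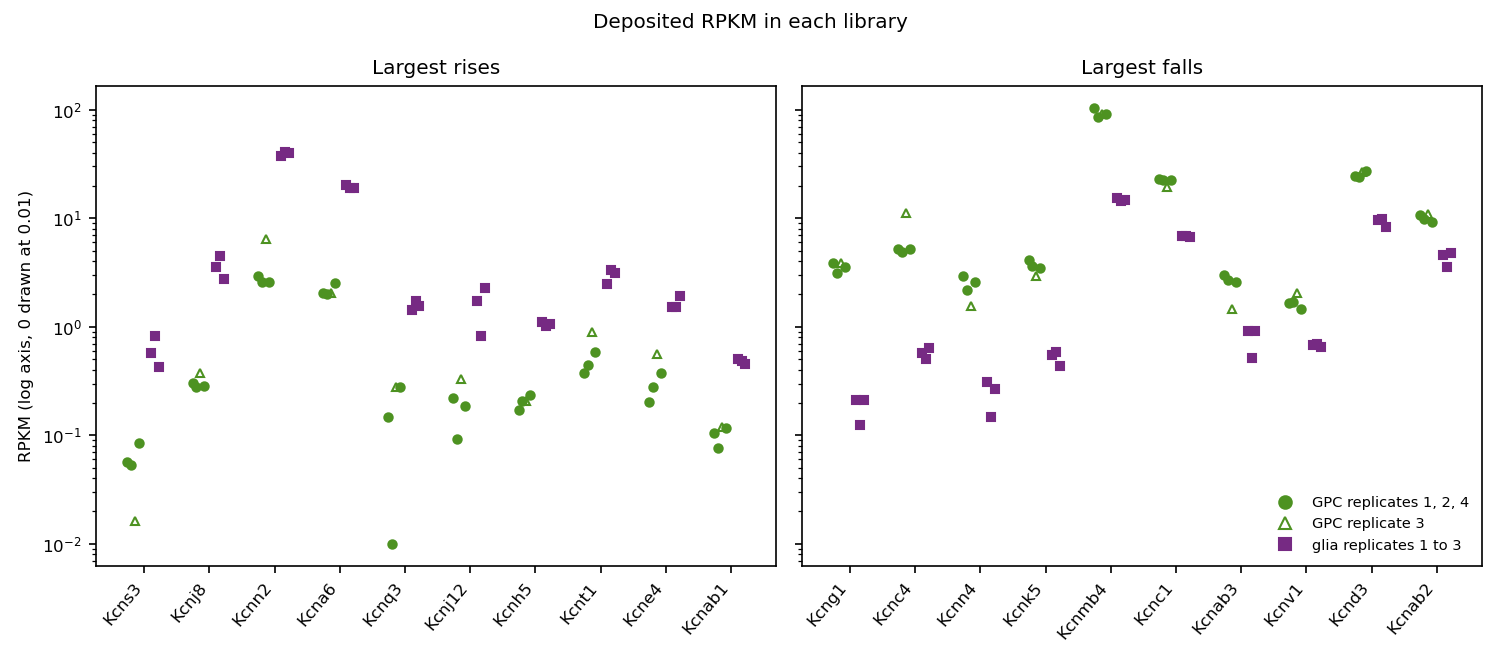
RPKM in each library (log axis, 0 drawn at 0.01) for the 10 largest rises and the 10 largest falls among called channel genes whose groups did not overlap; circles are GPC replicates 1, 2 and 4, open triangles GPC replicate 3, and squares glia. Kcnn2 and Kcna6 are the only large rises to exceed 10 RPKM in glia, and GPC replicate 3 stands above the other GPC libraries for Kcnn2 and Kcnc4.

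The silent Kv modifiers (Kcnf, Kcng, Kcns and Kcnv, 10 genes, 5 tested) form no channel of their own and change the behaviour of Kcnb channels. They held both the largest fall and the largest rise among the channel genes that could be tested. Kcng1 had RPKM values of 3.84, 3.10, 3.90 and 3.54 in GPC and of 0.213, 0.125 and 0.211 in glia. It was low in every glia library, with a log2 change of -4.13 ± 0.22 (SE, edgeR adjusted p = 1.2e-07). Kcnv1 had RPKM values of 1.64, 1.70, 2.03 and 1.45 in GPC and of 0.679, 0.693 and 0.658 in glia, again without overlap, and fell with a log2 change of -1.36 ± 0.17 (SE, edgeR adjusted p = 4.1e-05). In the other direction, Kcns3 had RPKM values of 0.0572, 0.0527, 0.0164 and 0.0852 in GPC and of 0.571, 0.817 and 0.424 in glia. This rise of 3.54 ± 0.43 (SE, edgeR adjusted p = 3.8e-05) rests on 1 to 3 reads in each GPC library and 16 to 29 in each glia library. Kcns1 had RPKM values of 0.0859, 0.169, 0.213 and 0.171 in GPC and of 0.579, 0.374 and 0.847 in glia, without overlap, and rose with a log2 change of 1.89 ± 0.36 (SE, edgeR adjusted p = 7.9e-04). Kcnf1 did not pass and had RPKM values of 0.454, 0.463, 1.103 and 0.515 in GPC and of 0.425, 0.393 and 0.504 in glia. GPC replicate 3 alone was high, and the log2 change of -0.59 became -0.10 without it. Summed over the 10 modifiers, the level was 5.57 to 7.61 RPKM in GPC and 2.59 to 2.82 RPKM in glia.

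The EAG group (Kcnh, 8 genes, 6 tested) had 2 rises, 1 fall and 3 genes that did not pass. Kcnh5, a non-inactivating voltage-gated subunit, had RPKM values of 0.172, 0.207, 0.208 and 0.237 in GPC and of 1.12, 1.02 and 1.05 in glia. The groups were far apart, with a log2 change of 2.33 ± 0.19 (SE, edgeR adjusted p = 2.1e-06). The highest of the group was Kcnh2, the channel that repolarizes the heart muscle cell, at RPKM values of 7.22, 5.95, 9.40 and 7.52 in GPC and of 6.54, 5.11 and 6.29 in glia. Its groups overlapped and it did not pass (log2 change -0.35 ± 0.15 SE, edgeR adjusted p = 0.063), though it passed without GPC replicate 2 (edgeR adjusted p = 0.017) and with DESeq2 (adjusted p = 0.047). Kcnh4 rose (0.77, edgeR adjusted p = 0.037) and Kcnh8 fell (-1.16, edgeR adjusted p = 0.025), both at means under 1 RPKM, and each call was lost on leaving out GPC replicate 3 or either of glia replicates 2 and 3 (edgeR adjusted p up to 0.16 and 0.064); that of Kcnh4 was also lost without GPC replicate 1 or 4. Kcnh7 did not pass at 0.15 and passed at 1.04 without GPC replicate 3 (edgeR adjusted p = 0.021).

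Among the KCNQ genes, Kcnq3 rose and Kcnq5 fell. Kcnq3, a subunit of the M channel, which damps repeated firing, had RPKM values of 0.148, 0, 0.278 and 0.281 in GPC and of 1.43, 1.74 and 1.56 in glia, a rise of 2.96 ± 0.44 (SE, edgeR adjusted p = 1.9e-04) from 35 reads over the 4 GPC libraries. Kcnq5, which also carries M-type currents, had RPKM values of 1.418, 1.19, 1.56 and 1.31 in GPC and of 0.961, 0.847 and 0.846 in glia. It fell without overlap, with a log2 change of -0.65 ± 0.14 (SE, edgeR adjusted p = 0.0019).

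Auxiliary subunits (Kcnab, Kcne and Kcnip, 12 genes, 9 tested) rose in 5 cases and fell in 2. The cytoplasmic beta subunits of Shaker channels split. Kcnab2 had RPKM values of 10.7, 9.86, 10.9 and 9.19 in GPC and of 4.54, 3.53 and 4.83 in glia. Kcnab3 had RPKM values of 3.00, 2.71, 1.46 and 2.57 in GPC and of 0.905, 0.514 and 0.917 in glia. Both fell without overlap, with log2 changes of -1.25 ± 0.12 (SE, edgeR adjusted p = 6.6e-06), and of -1.55 ± 0.29 (SE, edgeR adjusted p = 7.1e-04). Kcnab1 went the other way, at RPKM values of 0.104, 0.0768, 0.119 and 0.116 in GPC and of 0.506, 0.485 and 0.452 in glia. Its reads were few, 3 to 8 per GPC library and 10 to 26 per glia library, with a log2 change of 2.10 ± 0.28 (SE, edgeR adjusted p = 7.4e-05).

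The single-span Kcne subunits, which slow or silence voltage-gated pores, rose in both cases that could be tested. Kcne4 had RPKM values of 0.205, 0.279, 0.559 and 0.376 in GPC and of 1.52, 1.53 and 1.94 in glia, without overlap, and a log2 change of 2.11 ± 0.28 (SE, edgeR adjusted p = 6.8e-05). Kcne1l (also called Kcne5) was among the highest channel genes in both groups, at RPKM values of 10.8, 8.53, 15.8 and 9.54 in GPC and of 19.9, 15.4 and 18.5 in glia. GPC replicate 3 overlapped the glia, and its rise of 0.65 ± 0.20 (SE, edgeR adjusted p = 0.017) was lost without glia replicate 1 or 3 (edgeR adjusted p up to 0.069). Among the calcium-binding Kcnip subunits, which bring Shal channels to the surface, Kcnip3 had the highest level, at RPKM values of 16.0, 14.8, 21.7 and 14.8 in GPC and of 23.0, 20.0 and 23.7 in glia. GPC replicate 3 lay between the lowest and the highest glia library, and Kcnip3 did not pass (log2 change 0.36 ± 0.15 SE, edgeR adjusted p = 0.052), but did without that library (0.52, edgeR adjusted p = 9.0e-05), with DESeq2 (adjusted p = 0.046) and with a filter of 50 counts in 3 libraries (edgeR adjusted p = 0.040). Kcnip2 rose by a log2 change of 2.08 ± 0.24 (SE, edgeR adjusted p = 2.8e-05), from a mean of 1.20 RPKM to one of 5.37 RPKM. Kcnip4 had RPKM values of 0.350, 0.345, 0.467 and 0.290 in GPC and of 0.713, 1.16 and 0.452 in glia. GPC replicate 3 lay just above the lowest glia library, and the call (log2 change 0.90 ± 0.33 SE, edgeR adjusted p = 0.030) was lost when any of GPC replicates 1, 2 and 4 or glia replicates 1 and 2 was left out (edgeR adjusted p up to 0.097).

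Among channels opened by calcium or sodium (Kcnma, Kcnmb, Kcnn, Kcnt and Kcnu, 12 genes, 7 tested), 4 genes rose and 2 fell. The group held the highest channel gene by RPKM of each cell population. Kcnmb4, the BK beta subunit best known from brain, had RPKM values of 104, 86.6, 91.2 and 90.4 in GPC and of 15.4, 14.5 and 14.8 in glia. GPC thus had about 6 times the level of glia, with no overlap and a log2 change of -2.67 ± 0.09 (SE, edgeR adjusted p = 8.8e-09). Kcnma1, the BK pore itself, was much lower and did not pass. It had RPKM values of 2.55, 2.39, 1.76 and 2.45 in GPC and of 1.77, 2.27 and 1.47 in glia, with a log2 change of -0.37 ± 0.18 (SE, edgeR adjusted p = 0.079), and passed without GPC replicate 3 (-0.51, edgeR adjusted p = 0.0042) or glia replicate 2 (edgeR adjusted p = 0.029).

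Kcnn genes encode channels opened by calcium through calmodulin, which produce afterhyperpolarizations. Kcnn2, a small-conductance (SK) channel, had RPKM values of 2.93, 2.56, 6.46 and 2.56 in GPC and of 37.8, 40.6 and 39.9 in glia. GPC replicate 3 stood at 2.41 times the average of replicates 1, 2 and 4 and still far below glia, and the log2 change was 3.33 ± 0.30 (SE, edgeR adjusted p = 1.9e-05), or 3.84 without that library. Kcnn1 and Kcnn3, the other SK genes, rose too, by log2 changes of 1.37 ± 0.17 (SE, edgeR adjusted p = 4.7e-05), and of 0.88 ± 0.11 (SE, edgeR adjusted p = 3.7e-05). Kcnn3 had RPKM values of 4.33, 4.01, 3.71 and 3.98 in GPC and of 7.42, 8.93 and 6.39 in glia, without overlap. Kcnn4, the intermediate-conductance channel known from red cells, T cells and microglia, fell instead. It had RPKM values of 2.94, 2.17, 1.56 and 2.59 in GPC and of 0.313, 0.148 and 0.265 in glia, far apart, with a log2 change of -3.11 ± 0.33 (SE, edgeR adjusted p = 1.4e-05). Of 8 microglial markers only Tmem119 could be tested, and it rose, from 1.29 to 2.08 RPKM in GPC to 7.57 to 8.80 RPKM in glia. It made up most of the sum of the 8, which was 1.49 to 2.24 RPKM in GPC and 7.85 to 8.84 RPKM in glia. The means of 6 of the others were under 0.1 RPKM, and Cx3cr1 and C1qa were at 0 in every library. The sodium-activated channel gene Kcnt1 had RPKM values of 0.375, 0.442, 0.891 and 0.584 in GPC and of 2.46, 3.33 and 3.11 in glia, without overlap, and rose by a log2 change of 2.28 ± 0.22 (SE, edgeR adjusted p = 7.4e-06).

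Inward rectifiers (Kcnj, 13 genes here, 6 tested), which pass potassium near rest, rose in 4 cases and fell in none (edgeR, none also at an unadjusted p of 0.05, and none with DESeq2), and their summed level went from 4.42 to 5.26 RPKM in GPC to 13.5 to 13.9 RPKM in glia. Kcnj8, the pore of an ATP-sensitive potassium channel known from smooth muscle and pericytes, had RPKM values of 0.302, 0.279, 0.375 and 0.282 in GPC and of 3.55, 4.53 and 2.77 in glia. The groups were far apart, with a change of 3.41 ± 0.23 (SE, edgeR adjusted p = 5.6e-07) on the log2 scale. Abcc9, which encodes its usual partner subunit and marks pericytes, was at mean levels of 0.0266 RPKM in GPC and 0.171 RPKM in glia, too low to be tested, and the mural and mesenchymal marker sum went from 100.3 to 107 RPKM in GPC to 441 to 549 RPKM in glia. The part of such cells in the rise of Kcnj8 was not tested. Kcnj12, a strong inward rectifier known from muscle and brain, had RPKM values of 0.221, 0.0931, 0.334 and 0.188 in GPC and of 1.72, 0.823 and 2.27 in glia. Glia replicate 2 was the lowest of the glia yet above every GPC library, with a log2 change of 2.87 ± 0.40 (SE, edgeR adjusted p = 1.0e-04). Of 8 muscle markers 3 could be tested, of which 2 (Myh6 and Actc1) rose and 1 did neither. Myod1, Myog, Tnnt2 and Ryr1 had means under 0.1 RPKM in both groups. The sum of the 8 went from 0.437 to 0.653 RPKM in GPC to 2.36 to 3.33 RPKM in glia. The part of muscle-like cells in the rise of Kcnj12 was not tested.

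Kcnj9, a subunit of channels opened by G proteins, had RPKM values of 1.06, 0.689, 0.808 and 0.943 in GPC and of 2.92, 2.90 and 3.59 in glia. All glia libraries lay above all GPC libraries (log2 change 1.82 ± 0.17 SE, edgeR adjusted p = 5.1e-06). Kcnj11, the ATP-sensitive pore of the pancreatic beta cell, rose by a log2 change of 1.60 ± 0.18 (SE, edgeR adjusted p = 2.4e-05) from a mean of 0.422 RPKM to one of 1.30 RPKM. Kcnj2, the classical strong inward rectifier, had RPKM values of 0.836, 1.08, 0.875 and 1.26 in GPC and of 0.952, 1.41 and 0.941 in glia. Those ranges overlapped and it did not pass (0.05). Kcnj3 and Kcnj6, further G protein-opened subunits, had too few reads to be tested. Kcnj3 had 40 reads over the glia libraries and 1 over the GPC libraries, a ratio of 59.1 after scaling to library size with a 95% exact counting interval of 10.0 to 2393. Kcnj6 had 35 reads and 2, a ratio of 25.9 (6.65 to 222), and these intervals cover counting error only.

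Tandem-pore channels (Kcnk, 14 genes, 6 tested) carry background potassium current. They rose in 2 cases and fell in 1. Kcnk1 had RPKM values of 6.81, 7.37, 4.10 and 5.97 in GPC and of 11.2, 10.9 and 11.2 in glia. Its groups did not overlap, and the log2 change was 0.86 ± 0.17 (SE, edgeR adjusted p = 0.0011). Kcnk5, an acid-sensitive background channel known from epithelia, had RPKM values of 4.08, 3.66, 2.95 and 3.49 in GPC and of 0.544, 0.581 and 0.435 in glia. It was several times lower in every glia library, with a log2 change of -2.79 ± 0.18 (SE, edgeR adjusted p = 3.7e-07). Kcnk2, opened by stretch and lipids, had RPKM values of 6.48, 6.001, 10.2 and 6.96 in GPC and of 10.7, 9.47 and 11.0 in glia. GPC replicate 3 overlapped the glia, and it did not pass (log2 change 0.44 ± 0.18 SE, edgeR adjusted p = 0.053). It passed without that library (0.66, edgeR adjusted p = 2.3e-05), with DESeq2 (adjusted p = 0.036) and with a filter of 50 counts in 3 libraries (edgeR adjusted p = 0.043). Kcnk10, a close relative of Kcnk2, rose by a log2 change of 1.55 ± 0.28 (SE, edgeR adjusted p = 6.1e-04) from a mean of 0.725 RPKM to one of 2.30 RPKM.

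Sodium channel pore subunits (10 genes, 5 tested) were low in both groups, with a summed level of 3.24 to 3.47 RPKM in GPC and of 6.001 to 6.99 RPKM in glia. Scn8a, the main pore of the nodes of Ranvier, had RPKM values of 1.73, 1.65, 1.64 and 1.76 in GPC and of 2.20, 2.87 and 2.57 in glia. It rose a little, without overlap, by a log2 change of 0.53 ± 0.10 (SE, edgeR adjusted p = 6.1e-04). Scn3a, the pore typical of the embryonic nervous system, rose most of them, from a mean of 0.704 RPKM to one of 2.76 RPKM (log2 change 1.93 ± 0.14 SE, edgeR adjusted p = 1.1e-06), and its neighbour on chromosome 2, Scn2a1, rose by 0.97. Scn11a, a pore of pain-sensing neurons, had 32 reads in GPC and none in glia, at least 7.22-fold lower in glia with a floor of 3 reads over the group, and was not tested.

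Sodium channel beta subunits (4 genes, 3 tested), which also act in cell adhesion, summed to 3.99 to 6.91 RPKM in GPC and to 9.80 to 11.5 RPKM in glia. Scn3b rose by a log2 change of 1.51 ± 0.14 (SE, edgeR adjusted p = 5.4e-06) and Scn2b by one of 1.52 ± 0.26 (SE, edgeR adjusted p = 4.1e-04), from means of 1.93 and 0.179 RPKM to means of 5.58 and 0.515 RPKM.

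The remaining 44 channel genes had no test, and none of them exceeded 0.714 RPKM in any library. Kcnj5, another G protein-opened subunit, had 10 reads in glia and none in GPC, at least 4.93-fold higher in glia with a floor of 3 counts over the group. The silent modifier Kcns2 had 11 reads in glia and 1 in GPC, a ratio of 16.3 (2.36 to 699.8), and the EAG gene Kcnh6 had 18 reads in GPC and 2 in glia, 6.09 times more in GPC (1.46 to 54.1), with 95% exact counting intervals. For 8 of the 44 genes (Kcne3, Kcnj1, Kcnk15, Kcnk16, Kcnk9, Kcnmb2, Kcnmb3 and Kcnv2) no read was counted in any of the 7 libraries. Kcnq1ot1, an RNA that encodes no channel and runs antisense within Kcnq1, had RPKM values of 0.0762, 0.0855, 0.124 and 0.119 in GPC and of 0.0766, 0.117 and 0.0860 in glia, and did not pass. No source states whether reads were counted by strand, so those of Kcnq1ot1 and Kcnq1 cannot be told apart. The same holds for other channel genes among the 17 found to overlap another gene of the table. These include Kcnmb4, Kcnn2, Kcnab1, Kcnab2, Kcnip1 and Scn2b. Genes were matched to RefSeq by symbol or synonym, so some overlaps, such as that found for Kcnk2, may rest on a wrong match.

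Genes that work beside these channels were also described as a list of 43, with anchors, auxiliary proteins, pacemaker channels and the sodium-potassium pump. Of 35 tested, 22 rose, 5 fell and 8 did neither, with a median log2 change of 0.80, and 8 rather than 5 fell without GPC replicate 3. Over all genes tested 70.4% were called, 35.2% rising and 35.2% falling, with a median log2 change of 0.00. The 4 largest rises were Lgi4 (7.33), a secreted glial protein, Nfasc (4.01), an adhesion protein of glia and axons that helps cluster sodium channels, Hcn4 (3.04), a pacemaker channel, and Dlg2 (2.85), a scaffold protein. Nfasc rose from a mean of 3.37 RPKM to one of 56.9 RPKM. The 4 largest falls were Fgf13 (-2.02), which binds sodium channels from inside the cell, Dlg4 (-0.76), a scaffold, Lgi2 (-0.72) and Nedd4l (-0.48), a ubiquitin ligase that acts on sodium channels. Among the beta subunits of the pump, Atp1b2 rose from a mean of 129 RPKM to one of 475 RPKM (log2 change 1.85), Atp1b1 rose by 2.12 and Atp1b3 fell by 0.23 on the log2 scale.

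Peaks of the 2 SOX factors in GPC were assigned to genes by the authors, by a rule that the labels and file headers leave out. SOX9 had 24 peaks on 20 channel genes, against 8.95% of all genes of the table with a SOX9 peak, and SOX3 had 8 peaks on 6 channel genes, against 4.37%. Both factors had peaks at Kcnd3, Kcnk1 and Kcnma1. Few lay near a start site. None of the 8 SOX3 peaks and 2 of the 24 SOX9 peaks were within 1 kb of it. Over each whole list 2.41% and 8.12% of all SOX3 and SOX9 peaks lay that near, and the median distance was 98.1 kb for SOX3 and 77.7 kb for SOX9, against 53.6 and 45.2 kb over all peaks of each list. Within 100 kb lay 4 SOX3 peaks and 16 SOX9 peaks of channel genes, against 66.1% and 67.9% of each whole list.

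The SOX9 peak at Kcnj12 (mm9, chr11:60835974-60836574) reached from 92 bases before the start site to 508 bases after it, the only peak over the start of a channel gene that could be tested. The other peak within 1 kb belonged to Kcng2, which had too few reads for a test. Kcna6 had a SOX9 peak 5.24 kb before its start (mm9, chr6:126695105-126695705). Kcnmb4 had one 31.9 kb after its start (mm9, chr10:115878736-115879336). The SOX3 peak nearest a start lay 6.99 kb after that of Kcnh2 (mm9, chr5:23850366-23850495), and the farthest 750.3 kb after that of Kcnma1. Kcnd3 had SOX3 peaks 117.5 kb before and 78.7 kb after its start and a SOX9 peak 22031 bases after it. At Kcnk1, 2 overlapping SOX9 peaks 78.2 and 78.3 kb after the start (mm9, chr8:128596895-128597495 and chr8:128597023-128597623) overlapped the SOX3 peak (chr8:128597245-128597442). These were the only SOX9 peaks of channel genes to overlap a SOX3 peak, against 10.8% of all SOX9 peaks. NFIA peaks overlapped 5 of the 24 SOX9 peaks, those at Kcnma1, Scn8a, Kcnmb2 and Kcnd3 and 1 of the 2 at Kcna4, against 28.4% of all SOX9 peaks, and 0 of the 8 SOX3 peaks, against 7.39%.

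**Figure D4:**
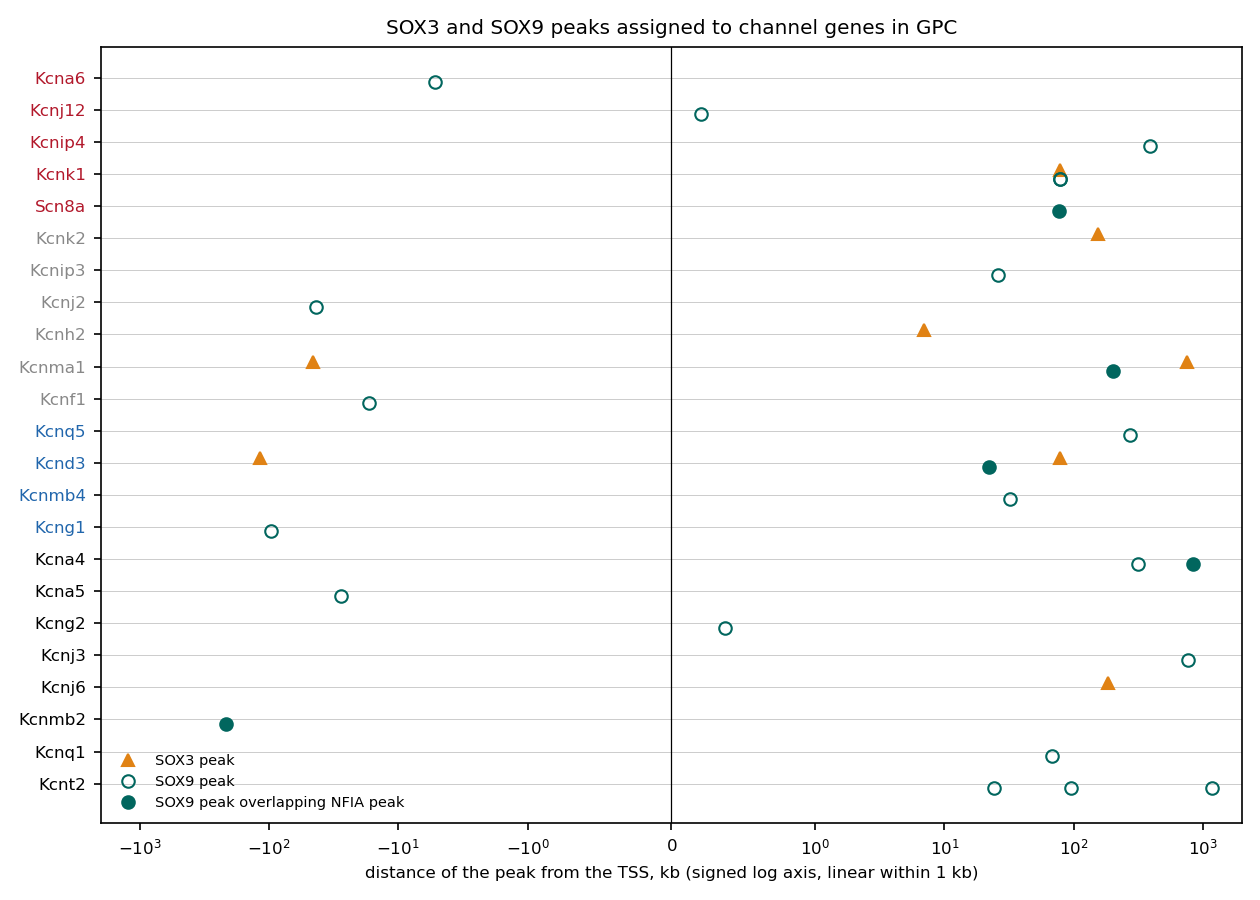
Distance of each SOX3 (triangle) and SOX9 (circle, filled where an NFIA peak overlaps) peak from the start of the channel gene that the authors assigned, in kb on a signed log axis; negative values lie before the start, and gene names are red for rises, blue for falls, grey for no pass and black for no test. Of 32 peaks, only those of Kcnj12 and Kcng2 lie within 1 kb of the start.

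Channel genes with SOX9 peaks went both ways. Of the 20, 13 could be tested (11.6% of all tested genes had a SOX9 peak and 5.81% a SOX3 peak), with 5 rises (Kcna6, Kcnj12, Kcnip4, Kcnk1 and Scn8a) and 4 falls (Kcng1, Kcnmb4, Kcnd3 and Kcnq5). Of the 6 with SOX3 peaks, 5 could be tested, with 1 rise (Kcnk1), 1 fall (Kcnd3) and 3 that did neither (Kcnh2, Kcnk2 and Kcnma1). Among the 48 tested channel genes without a peak, 27 rose and 10 fell. Over all 1574 tested genes with a SOX9 peak, 604 rose and 554 fell, and over all 789 with a SOX3 peak, 295 rose and 281 fell. Of all genes tested, with or without a peak, 35.2% rose and 35.2% fell. In the 250 bases before the first listed start, searched on both strands, the SOX-type letters ACAAAG or ACAATG occurred for 11 of 77 channel genes (14.3%), against 25.5% of all genes of the promoter table. Kcnmb4 held 1 such match, ACAAAG on the strand opposite to the one printed, and Kcnj12, Kcnj8 and Kcnc1 held none. The NFI palindrome, TTGGC and GCCAA with 5 bases of any kind between them, occurred for none of the 77 and for 0.0407% of all genes, and TATAAA for 2.60% of the 77 and 13.0% of all genes.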

How the data were processed

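RNA was measured in 4 GPC and 3 glia libraries, and SOX3, SOX9 and NFIA binding in 2, 3 and 2 GPC samples, of the 19 samples in the labels. Inputs and the histone mark samples were not analysed here. The deposited expression table has a raw count for each gene and library, without normalization, and RPKM values that the authors scaled by gene length and library reads, per the file headers. The submitters' processing notes name build mm9 and the peak callers MACS and MACS2. Which tools aligned and counted the reads, and whether by strand, is in no source used here. One deposited peak list covers all samples of a factor, with a signed distance to the start site of a gene that the authors assigned (SOX3, SOX9) or a score of the authors whose meaning is not stated (NFIA).

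Counts were fitted in R 4.3.3 with edgeR 4.0.16 (TMM, default filterByExpr, robust glmQLFit and glmQLFTest, two-sided), which tested 13588 genes, and DESeq2 1.42.0 served as an alternative. SEs were derived from each log2 change and its F statistic. The scripts' calls were tested on simulated data. RPKM served for levels only, and for 5 of 72 channel genes examined (Kcnip2, Kcnj6, Kcnt1 and Kcnd3 among them) the length that RPKM implies varied by over 1.1 times between libraries. The members and lists were chosen with earlier results of these data known. Named channel genes were the 10 largest rises and 10 largest falls that were called without overlap, the 6 highest in each group, the highest tested one of each subfamily and every tested one with a peak. Some genes of the table enter the fit and the group totals but are not reported here by name. Kcna2, Kcnn3, Kcnj3, Kcnj5, Kcnj6, Kcns2, Kcnh6, Scn11a and the genes given only by means or in a clause fall outside that rule and were picked after their values were seen. Peaks overlap when they share at least 1 bp. Peak genes were matched by symbol. RefSeq (GRCm38.p6) gave names, overlaps and promoters, and no protein or peak sequence was used here.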

Additional observations from a re-analysis of the deposited data

Results flagged for a closer look

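In 6 of the 37 channel genes given with every library's value, 1 GPC library lay apart from the other 3, judged by its gap to the nearest library over the range of all 4 against a 95% limit of 0.829. Chance alone gives about 1 in 20 groups that are independent, and these genes share the same 4 libraries. The screen was not run over all genes, so whether the count is particular to channel genes was not tested. GPC replicate 3 was the library apart in 5 of the 6. It was highest for Kcnc4 (11.1 RPKM against 4.91 to 5.20, gap 0.952), Kcna2 (6.53 against 2.70 to 3.02 RPKM, gap 0.916), Kcnf1 (1.103 against 0.454 to 0.515 RPKM, gap 0.906) and Kcnn2 (6.46 against 2.56 to 2.93 RPKM, gap 0.905), and lowest for Kcnc1 (19.3 against 22.3 to 22.8 RPKM, gap 0.864). For Kcna6 it was GPC replicate 4, with 2.55 against 2.02 to 2.05 RPKM (gap 0.953). Kcnc4, Kcnn2, Kcnc1 and Kcna6 kept their calls without any 1 library, Kcna2 lost its call on leaving out any 1 library other than GPC replicate 3, and the cause was not tested.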

How the results depend on the processing

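Under DESeq2, RLE scaling, no filter, a stricter filter, the replicate block and each left-out library, 39 of the 46 called channel genes kept their call wherever they were tested, 7 lost it in some setting (Kcna2, Kcna3, Kcnh4, Kcnip4, Kcnh8 and Kcne1l among them), and none changed direction. A call was gained in some setting by 5 others: Kcnh2, Kcnip3 and Kcnk2 with DESeq2 and with the block (edgeR adjusted p = 0.028, 0.029 and 0.035 with the block), Kcnip3 and Kcnk2 also under the stricter filter, and Kcnh2, Kcnip3, Kcnk2, Kcnh7 and Kcnma1 on leaving out 1 library. Rising channel genes numbered 29 to 34 and falling ones 13 to 15 on leaving out 1 library, 39 and 15 with DESeq2, and 39 and 17 with no filter. With at least 50 counts in 3 libraries, 21 rose and 12 fell of 41 tested, which leaves out low genes by construction. Rising inward rectifiers numbered 7 with DESeq2 and with no filter, against 4. The median log2 change was 0.64 with DESeq2, 0.39 under the stricter filter, and 0.53 to 0.69 on leaving out 1 library. Falling partner genes numbered 5 to 8 on leaving out 1 library, and the cause was not tested. The labels do not say that the replicate numbers pair the samples, so they were not taken as doing so. Same-numbered GPC and glia libraries deviated with correlations of -0.02, 0.14 and 0.07, and differently numbered ones with -0.16 to 0.09. These values are too few to decide whether the samples were paired. With the replicate number as a block, 33 channel genes rose and 15 fell (43 of the 46 calls shared), with a median of 0.59, and Kcna2, Kcnh4 and Kcnip4 lost their calls. Only genes that were not called changed sign. Among them, on leaving out 1 library, Kcna1 ranged from -0.27 to 0.11, Kcnh7 from -0.28 to 1.04, Kcnip1 from -0.14 to 0.070, Kcnj2 from -0.12 to 0.16, Kcnj4 from -0.20 to 0.0039 and Kcnk13 from -0.074 to 0.32. Kcnip1 was at 0.0068 under the stricter filter and at 0.071 with the block. SOX9 peaks of channel genes that overlapped a SOX3 peak numbered 0 when 50% of the SOX9 peak had to be covered. Glia replicate 2 had the fewest reads, where 3 reads are 0.435 CPM.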
